A study of Mus musculus with 6 samples.

Results

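RNA-seq of mouse J1 ES cells on day 13 (D13) was compared with that on day 6 (D6) of culture in the same medium, 2i+vitC. The comparison takes 4 of the 6 samples of the series, 2 for each day, and all 12626 genes of the processed files. J1 is a wild-type ES cell line, so both days share 1 genetic background. The cells came from serum medium with leukemia inhibitory factor (LIF), which is the D0 group of 2 samples. The 2i+vitC medium held LIF at 1000 U/mL, the Gsk3 inhibitor CT-99021 at 3 µM, the MEK inhibitor PD0325901 at 1 µM and vitamin C at 100 µg/mL, and serum was left out. Cells of every group grew on gelatin without feeder cells. D6 and D13 therefore differ by the time spent in 1 medium, and the question was which genes still changed after the medium had become constant. Each day is 1 time point, so the time in the medium and the harvest cannot be told apart.

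As background, 2i medium holds mouse ES cells in a naive state close to that of the early epiblast. The MEK inhibitor blocks the ERK cascade, through which FGF drives cells toward lineage commitment, and the Gsk3 inhibitor stabilizes beta-catenin. Vitamin C is a cofactor of TET enzymes and of JmjC histone demethylases, and together with 2i it leads to a loss of DNA methylation from most of the genome. Genes that rely on promoter methylation for silencing, many of them of the germline, can become transcribed in such cells.

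All values are log2 read counts scaled to the size of the library (log2 CPM), as the authors deposited them. The 6 libraries held 73230745 to 83688345 reads on genes, and 3 reads were worth 0.0344 to 0.042 CPM. A gene was called changed when limma, fitted on all 6 libraries with a mean per day, gave a Benjamini-Hochberg adjusted p under 0.05, and such genes are said to have risen or fallen. Each gene in the files exceeded 1 CPM in at least 2 of the 6 libraries, with 1.02 CPM as the lowest of these levels. The lowest gene of a library had 6 or 7 reads at D6 and 2 reads at D13. Genes without reads at D6 are therefore not among those tested. Of the gene rows, 710 had an incomplete or unmatched name, since a capital G and the character after it are missing from the names, and these were tested but, except where stated, not named.

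D13 replicate 1 stood apart from the other D13 library. Across 11479 genes with a known transcript length (90.9% of those tested), the difference between D13 replicate 1 and D13 replicate 2 had a Spearman correlation of -0.62 with length and of 0.33 with GC content. The same correlations were -0.19 and -0.09 between the D6 replicates. D13 minus D6 correlated with length at -0.42 in replicate 1 and at 0.04 when D13 replicate 1 was left out. The called genes carried part of this trend. Median transcript length was 2823 bases in genes that rose, 3525.5 bases in genes that fell and 3399 bases in all genes, and median GC content was 53.1%, 48.7% and 49.8%. The replicates of D13 differed by a median of 0.378 on the log2 scale, those of D6 by 0.145 and those of D0 by 0.344. The part of this trend in single results was not tested, and values without D13 replicate 1 or after a correction for length and GC content are given beside some of the results. The corrected fit tested 11479 genes and made more calls in all, 477 rises and 646 falls against 171 and 322 in the same genes uncorrected.

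**Figure D1:**
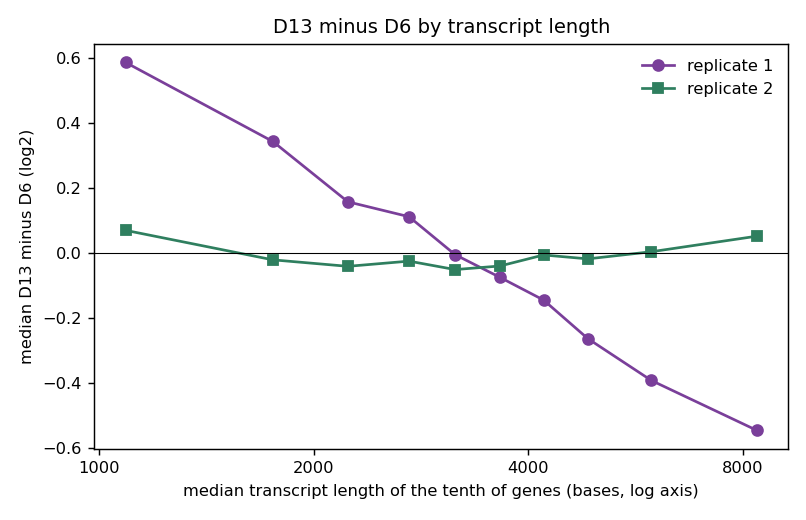
Median of D13 minus D6 (log2, y axis) in 10 groups of genes ordered by transcript length (x axis, bases, log scale), for libraries of replicate 1 (circles) and of replicate 2 (squares). In replicate 1 the median went from 0.588 in the shortest genes to -0.547 in the longest, while in replicate 2 it lay between -0.051 and 0.07.

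Between D6 and D13, 180 genes rose and 348 genes fell, 1.43% and 2.76% of the 12626 genes tested. More than 4-fold changes were found for 49 genes that rose and 88 genes that fell, 0.388% and 0.697% of those tested. The median difference over all genes was -0.014 on the log2 scale. The largest falls included the left-right signalling gene Lefty1, the 2-cell-stage genes Zscan4d and Zscan4f and the Rac exchange factor gene Tiam2. The largest rises included the circadian repressor Bhlhe41, the Notch ligand Dll1, the ERK phosphatase Dusp4 and the heat shock gene Hspa1a. At an unadjusted p under 0.05, 1321 of the 12626 genes were higher and 1834 were lower at D13. These counts and shares over all genes are the background for the counts of the gene lists below. The lists were chosen with earlier results of these data known, and the study had reported changes of Dazl and Zscan4 genes in these samples. A list share that differs from the background is therefore a description and not an independent test.

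**Figure D2:**
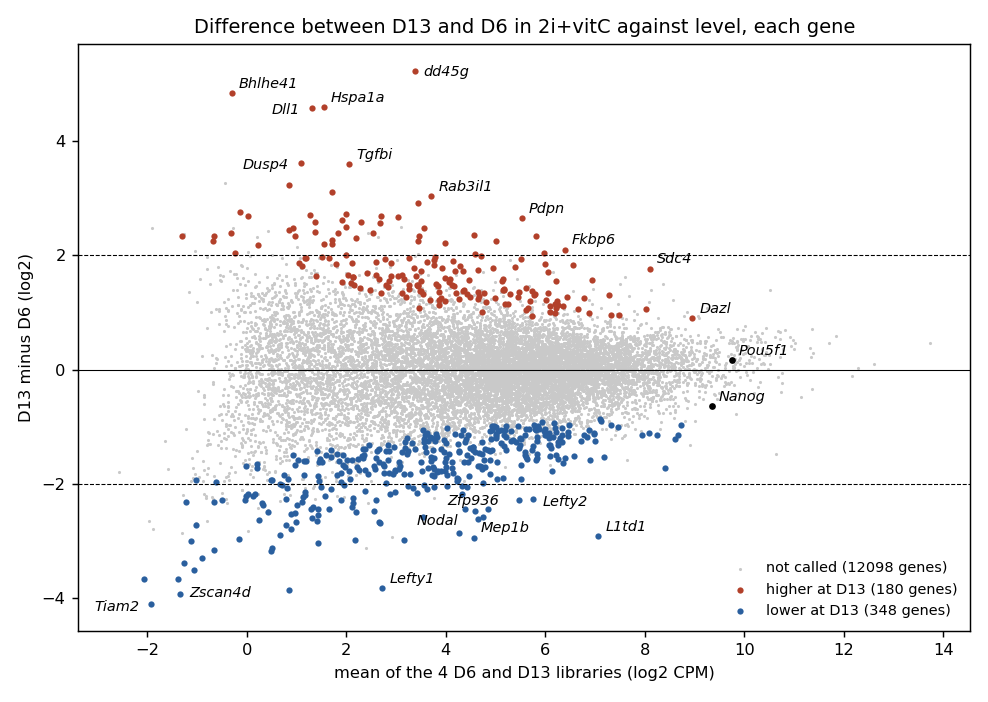
D13 minus D6 (log2, y axis) against the mean level over the 4 libraries of D6 and D13 (log2 CPM, x axis), with 1 point per gene. Red points are the 180 genes that rose, blue points the 348 genes that fell, black points are genes named but not called, and dashed lines mark a 4-fold change. L1td1 lies far below the other highly expressed genes at -2.92, and the point dd45g keeps the incomplete name of its row.

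Changes were read in both replicates. In all 528 called genes, both D13 libraries lay on the same side of both D6 libraries. This was also so in many genes that were not called: both D13 libraries lay above both D6 libraries in 30.0% of all genes and below them in 31.5%. Of the 137 genes past 4-fold, 96 were past 4-fold in the direction of the call in libraries of replicate 1 and in those of replicate 2 taken alone, and all 137 were past 2-fold in both. Among the 180 genes that rose, 163 were more than 2-fold higher in both replicates, and among the 348 that fell, 295 were more than 2-fold lower in both. These counts describe the genes chosen by the same libraries. When D13 replicate 1 was left out, limma called 0 genes, 959 genes were higher and 1326 lower at an unadjusted p under 0.05, and the smallest adjusted p was 0.087. In that fit D13 is a single library, assumed to vary like the other days. All 528 genes kept their direction, each with an unadjusted p under 0.05, but they had been chosen with the same remaining libraries, so this is no independent check, and 38 of the 49 rises and 69 of the 88 falls stayed past 4-fold. Leaving out a D6 library also cost calls, with 22 rises and 38 falls without D6 replicate 1, and 8 rises and 10 falls without D6 replicate 2.

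**Figure D3:**
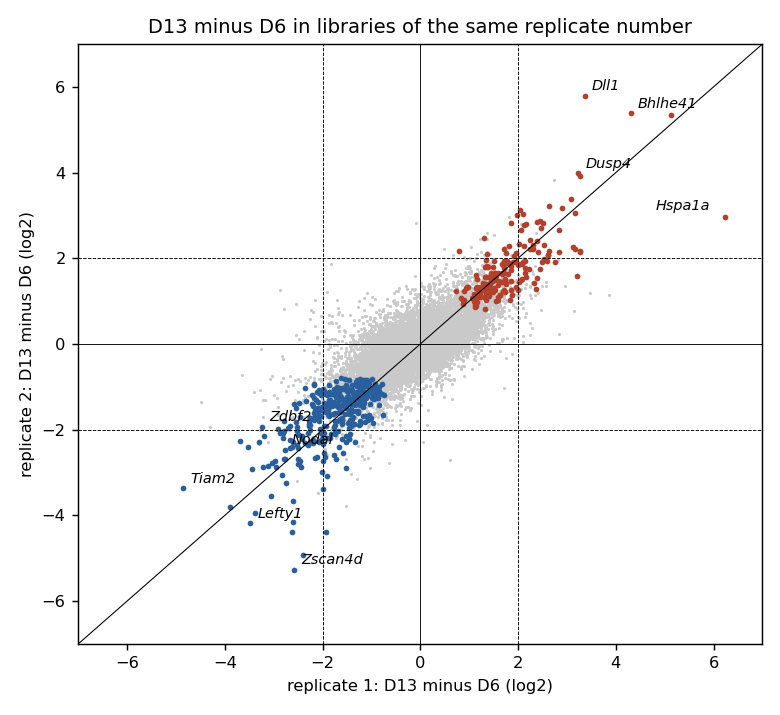
D13 minus D6 (log2) in the libraries of replicate 1 (x axis) against that in the libraries of replicate 2 (y axis), with 1 point per gene, genes that rose in red, genes that fell in blue, and dashed lines at a 4-fold change. Called genes lie in the upper right and lower left quadrants along the diagonal, with Hspa1a (6.23 and 2.96) far on the side of replicate 1.

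Nodal and its 2 inhibitors Lefty1 and Lefty2 fell past 4-fold. Nodal is a TGF-beta family ligand that acts through SMAD2, SMAD3 and FOXH1 and supports the formative and primed epiblast, and its targets Lefty1 and Lefty2 encode secreted inhibitors of Nodal itself. Nodal (chromosome 10, 61417972 to 61425338, GRCm38) stood at 5.96 log2 CPM in both D6 libraries and at 3.18 and 3.49 in the D13 libraries, a difference of -2.62 ± 0.22 (SE) with an adjusted p of 0.0056. It had been 5.97 and 6.07 in serum at D0, so both D13 libraries lay far below the 4 others. Lefty1 had 5.10 and 4.17 log2 CPM at D6 and 1.62 and -0.01 at D13, a difference of -3.83 ± 0.51 (adjusted p = 0.016). Lefty2 had 7.02 and 6.77 at D6 and 4.78 and 4.48 at D13, a difference of -2.26 ± 0.22 (adjusted p = 0.0102). The days did not overlap for any of these 3 genes, and without D13 replicate 1 the differences were -2.47 for Nodal, -4.65 for Lefty1 and -2.41 for Lefty2.

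Of 19 measured genes of the Nodal and activin pathway, 4 fell (21.1%, against 2.76% of all genes), each past 4-fold and Nodal, Lefty1 and Lefty2 among them. At an unadjusted p under 0.05, 7 were lower and 1 was higher, against 1834 and 1321 of all 12626 genes. The median over the list was -0.29 against -0.014 over all genes. Receptors, co-receptors and transducers were not called: the co-receptor Tdgf1 differed by -0.29 ± 0.43 (adjusted p = 0.719), the negative regulator Smad7 by -0.77 ± 0.29 (adjusted p = 0.155) and Foxh1 by 0.65 ± 0.22 (adjusted p = 0.123). The activin subunit gene Inhbb had 1.46 and 2.69 log2 CPM at D6 and 0.31 and 0.01 at D13, which missed the threshold (adjusted p = 0.0617). Among 25 measured genes of the formative and primed epiblast and of early lineages, 6 fell and none rose, while 8 were lower and 2 higher at an unadjusted p under 0.05. They included Nodal, Lefty1, Lefty2 and Cdh2, which encodes N-cadherin (-2.31 ± 0.52, adjusted p = 0.0465). The median of this list was -0.29.

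**Figure D4:**
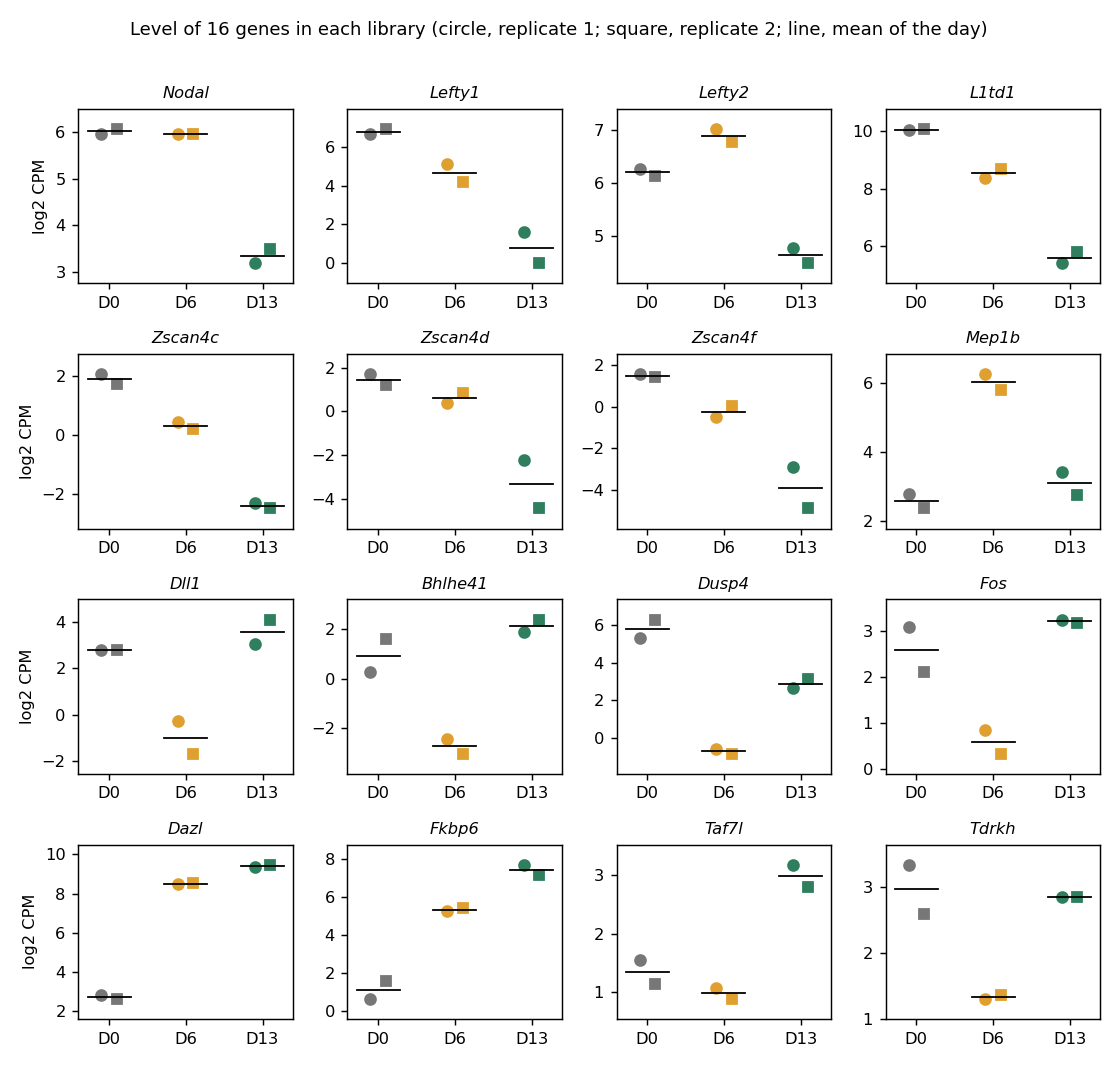
Level (log2 CPM, y axis with its own range in each panel) of 16 genes in the 2 libraries of D0, D6 and D13, with circles for replicate 1, squares for replicate 2 and a line at the mean of the day. Nodal, Lefty1, Lefty2, L1td1, Zscan4c, Zscan4d, Zscan4f and Mep1b are lower at D13 than at D6 in both libraries, and the other 8 genes are higher.

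Zscan4 genes of the 2-cell stage were among the falls. A small share of ES cells in culture passes through a state with transcripts of the 2-cell embryo, among them the Zscan4 family, whose proteins act at telomeres. Zscan4c had 0.46 and 0.21 log2 CPM at D6 and -2.30 and -2.48 at D13, a difference of -2.72 ± 0.45 (adjusted p = 0.0233). Zscan4d had 0.38 and 0.85 at D6 and -2.21 and -4.42 at D13, a difference of -3.93 ± 0.72 (adjusted p = 0.0289). Zscan4f went from -0.51 and 0.02 to -2.91 and -4.91, a difference of -3.67 ± 0.70 (adjusted p = 0.0313). All 3 genes had few reads left at D13. Zscan4d had 255 reads in the D6 libraries together and 18 at D13 (15 and 3), a ratio of 12.7 with a 95% exact interval of 7.85 to 21.7, and Zscan4f had 141 and 11 (9 and 2), a ratio of 11.5 with an interval of 6.21 to 23.5. These intervals cover counting error only. The Zscan4 copies are nearly identical, so reads may have been split among them. In bulk RNA, fewer cells in such a state and less RNA per cell cannot be told apart.

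Of 16 measured genes in the 2-cell-stage list, which also holds regulators, 6 fell (37.5%, against 2.76% of all genes), and 9 were lower and 0 higher at an unadjusted p under 0.05. The median was -0.82, with 11 of the 16 genes (68.8%, against 31.5% of all genes) lower in both D13 libraries than in both D6 libraries. Zscan4c, Zscan4d and Zscan4f are among the 6 and are near copies, so the count of members that fell is uncertain. The other members that fell were Trim43a (-2.36 ± 0.47, adjusted p = 0.0326), Dppa2, an activator of Zscan4 and of related 2-cell genes (-1.83 ± 0.29, adjusted p = 0.0232), and the repressor Zfp809 (-1.58 ± 0.33, adjusted p = 0.0372). Dppa2 and Zfp809 are regulators and not transcripts particular to the 2-cell stage, with 7.44 and 6.81 and with 4.78 and 5.14 log2 CPM in serum. The share of the list that fell is therefore not a share of 2-cell-stage transcripts. Both genes are also counted in other lists described below. Trim43a had risen before D6, from -1.23 and -1.52 log2 CPM at D0 to 2.23 and 2.14 at D6, and fell to 0.24 and -0.60 at D13. The study's own list of genes with transposon-driven transcripts was chosen on these samples and so is no independent evidence of direction. It had 26 measured members, of which 2 fell (7.69%, against 2.76% of all genes). At an unadjusted p under 0.05, 6 of the list were lower and 1 higher, with a median of -0.40. Mep1b, which encodes a meprin protease subunit, showed a peak at D6: 2.77 and 2.35 log2 CPM in serum, 6.25 and 5.81 at D6 and 3.42 and 2.74 at D13 (D13 minus D6 -2.95 ± 0.32, adjusted p = 0.0137). Mep1b and Aoah, a lipase gene (-1.55 ± 0.28, adjusted p = 0.0283), were the 2 members of the study's list that fell.

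Of the pluripotency genes, 1 was called, and many others were lower at D13 without being called. Pou5f1, which encodes OCT4, stood at 9.63 and 9.70 log2 CPM at D6 and at 10.18 and 9.46 at D13, so the days overlapped (0.16 ± 0.29, adjusted p = 0.77). Sox2 differed by -0.36 ± 0.22 (adjusted p = 0.336) and Esrrb by -0.16 ± 0.41 (adjusted p = 0.842), so the defining markers of ES cells were present on both days. Nanog had 9.67 and 9.66 at D6 and 9.16 and 8.90 at D13, a difference of -0.64 ± 0.22 that missed the threshold (adjusted p = 0.12). Klf4 (-0.63 ± 0.26, adjusted p = 0.182), Tbx3 (-0.59 ± 0.26, adjusted p = 0.196) and Prdm14 (-0.33 ± 0.26, adjusted p = 0.465) were likewise lower in both D13 libraries than in both D6 libraries without being called. Of 33 measured genes in the list of pluripotency factors, Dppa2 alone fell (3.03%, against 2.76% of all genes) and none rose. The list mixes naive factors with genes such as Dppa2, Utf1 and Lin28a that were already lower at D6 than in serum. Dppa2 went from 7.44 and 6.81 log2 CPM at D0 to 5.79 and 5.81 at D6, and Lin28a from 9.35 and 8.82 to 4.66 and 5.72. Nanog, Klf4, Tbx3 and Prdm14 were higher at D6 than at D0. At an unadjusted p under 0.05, 12 were lower and 1 higher, against 1834 and 1321 of all 12626 genes. The median of the list was -0.38 (-0.36 in replicate 1 and -0.32 in replicate 2), and 57.6% of it lay lower in both D13 libraries, against 31.5% of all genes.

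Several highly expressed genes fell. L1td1 (chromosome 4, 98726734 to 98738480, GRCm38) encodes an RNA-binding protein derived from the first open reading frame of a LINE1 element and is a known marker of pluripotent cells. It had 10.02 and 10.05 log2 CPM in serum, 8.38 and 8.67 at D6 and 5.42 and 5.79 at D13, a difference of -2.92 ± 0.23 between D6 and D13 or a 7.56-fold fall (adjusted p = 0.00428), and the 3 days did not overlap. Ppp1r10, which encodes a nuclear subunit that targets protein phosphatase PP1, went from 6.01 and 6.14 to 3.35 and 3.90 (-2.45 ± 0.25, adjusted p = 0.0123). Zfp296, a zinc-finger gene expressed in pluripotent cells, went from 6.14 and 6.08 to 4.39 and 4.01 (-1.90 ± 0.25, adjusted p = 0.0157). 5730507C01Rik, a gene known only by its clone name, fell too (-1.78 ± 0.28, adjusted p = 0.0232). The imprinted gene Zdbf2 had 5.69 and 6.38 at D6 and 2.45 and 4.45 at D13. Its difference was -2.59 ± 0.55 (adjusted p = 0.0386) and -1.59 without D13 replicate 1, so that library moved the value by more than 1.5 times. It was the only 1 of 45 measured imprinted genes to fall, and none rose, with 8 higher and 6 lower at an unadjusted p under 0.05 and a median of 0.12.

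Zinc-finger genes were among the falls. Many genes of this name encode KRAB zinc-finger proteins, many of which bind transposons and recruit TRIM28 and SETDB1. The genes named Zfp and a number, a group formed after the values were seen and so not a test, numbered 305. Of these, 37 fell (12.1%, against 2.76% of all genes) and 2 rose (0.656%, against 1.43%), 246 of the 305 differences were below 0, and the median was -0.57. The median was -0.91 in replicate 1 and -0.34 in replicate 2, and it was -0.42 after the correction for length and GC content, with 56 falls and 7 rises. Zfp936 had 6.50 and 6.74 log2 CPM at D6 and 3.97 and 4.70 at D13 (-2.28 ± 0.27, adjusted p = 0.0146). The largest falls of the group were those of Zfp963 (-2.73 ± 0.39, adjusted p = 0.0178), Zfp213 (-2.66 ± 0.41, adjusted p = 0.0204), Zfp426 (-2.47 ± 0.37, adjusted p = 0.0198) and Zfp709 (-2.44 ± 0.44, adjusted p = 0.0283). Many of these genes are close copies of each other, so single members are uncertain.

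Of the genes of chromatin enzymes and silencers, none rose in the uncorrected fit. Of 44 measured genes of H3K9 methylation and transposon silencing, Zfp819 (-2.16 ± 0.35, adjusted p = 0.0233) and Zfp809 fell and none rose. The falls were 4.55% of the list, against 2.76% of all genes, with 9 lower and 1 higher at an unadjusted p under 0.05 and a median of -0.21. Trim28 differed by -0.30 ± 0.28 (adjusted p = 0.545) and Setdb1 by -0.57 ± 0.22 (adjusted p = 0.16). No Polycomb gene of 41 was called (2 higher and 9 lower at an unadjusted p under 0.05, median -0.16), and the largest difference among them was that of Phf19 at 1.11 ± 0.34 (adjusted p = 0.0945). After the correction 2 rose, Phf19 among them (1.14, adjusted p = 0.0476), and 1 fell. No gene of 27 for DNA methylation and demethylation was called, with 4 higher and 7 lower at an unadjusted p under 0.05 and a median of -0.12, while 1 rose and 4 fell after the correction for length and GC content, and 1 rose and 3 fell with a replicate block. In that list the maintenance methyltransferase gene Dnmt1 differed by 0.22 ± 0.23 (adjusted p = 0.584), its partner Uhrf1 by 0.53 ± 0.22 (adjusted p = 0.171), Tet1 by -0.91 ± 0.35 (adjusted p = 0.157) and Tet2 by -1.53 ± 0.36 (adjusted p = 0.0517). Tet2 was called after the correction (-1.23, adjusted p = 0.0332). Dppa3, whose product limits UHRF1, had 7.16 and 6.41 log2 CPM at D6 and 8.65 and 8.18 at D13, which missed the threshold (1.63 ± 0.43, adjusted p = 0.066). A list of JmjC demethylases, other dioxygenases that need vitamin C and vitamin C transporters had 43 measured genes. Of these the H3K9 demethylase gene Kdm3a fell (-1.01 ± 0.20, adjusted p = 0.0342), none rose, 11 were lower and 3 higher at an unadjusted p under 0.05, and the median was -0.12.

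Of the germline genes, 4 rose and none fell. Promoters of many germline genes are methylated in somatic cells, and many are known targets of a Polycomb complex that holds MGA and MAX, which bind CACGTG, and E2F6. These 4 were 6.9% of 58 measured members, against 1.43% of all genes, and 19 were higher and 4 lower at an unadjusted p under 0.05. The median was 0.50 (0.56 in replicate 1 and 0.52 in replicate 2), and 60.3% of the list lay higher in both D13 libraries than in both D6 libraries, against 30.0% of all genes. After the correction for length and GC content, 10 rose and 1 fell.

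The 4 genes differed in their course. Dazl, which encodes an RNA-binding protein of germ cells, had 2.83 and 2.64 log2 CPM in serum, 8.48 and 8.53 at D6 and 9.34 and 9.47 at D13, so most of its increase lay before D6 (D13 minus D6 0.90 ± 0.20, adjusted p = 0.0446). Fkbp6, a chaperone gene of the piRNA pathway, had 0.65 and 1.58 in serum, 5.26 and 5.41 at D6 and 7.71 and 7.16 at D13 (2.10 ± 0.34, adjusted p = 0.0233). Both genes were above serum at each later day. Taf7l, which encodes a germ cell subunit of TFIID, had 1.55 and 1.14 in serum, 1.08 and 0.89 at D6 and 3.18 and 2.80 at D13 (2.01 ± 0.35, adjusted p = 0.0268). Tdrkh, a Tudor domain gene of piRNA biogenesis, had 3.33 and 2.59 in serum, 1.30 and 1.36 at D6 and 2.85 in both D13 libraries (1.52 ± 0.34, adjusted p = 0.0475). Taf7l was thus higher only at D13, and Tdrkh was at about its serum level again. Without D13 replicate 1 the differences were 0.97 for Dazl, 1.82 for Fkbp6, 1.81 for Taf7l and 1.52 for Tdrkh. Of the other members, the meiotic gene Sycp3 differed by 1.15 ± 0.30 (adjusted p = 0.0609, and 0.0381 after the correction), the helicase gene Ddx4 by 1.14 ± 0.39 (adjusted p = 0.123) and Mael by 0.74 ± 0.31 (adjusted p = 0.182), and none of these was called in the uncorrected fit.

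The promoters of these 4 genes are shown from 250 bases before to 50 bases after the RefSeq start on GRCm38.p6, each on the strand of its gene. The list was drawn up from genes described as silenced through promoter methylation. Methylation was not examined in this comparison, and Taf7l and Tdrkh were not above their serum levels at D6. The capitals mark CACGTG, which reads the same on both strands, and the E2F sequence GCGGGAA or its complement TTCCCGC was searched on both strands too and was in none of the 4. They lie at chr5:135349995-135350294 (minus strand, the first of 2 starts of Fkbp6), chrX:134476441-134476740 (minus strand), chr17:50293571-50293870 (minus strand) and chr3:94412994-94413293 (plus strand).
Fkbp6: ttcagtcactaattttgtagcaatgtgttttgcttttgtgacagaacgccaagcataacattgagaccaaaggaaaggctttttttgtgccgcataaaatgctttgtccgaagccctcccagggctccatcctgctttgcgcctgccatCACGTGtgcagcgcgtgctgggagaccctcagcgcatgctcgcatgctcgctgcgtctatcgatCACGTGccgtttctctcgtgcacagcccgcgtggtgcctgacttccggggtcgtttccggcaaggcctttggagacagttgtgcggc
Taf7l: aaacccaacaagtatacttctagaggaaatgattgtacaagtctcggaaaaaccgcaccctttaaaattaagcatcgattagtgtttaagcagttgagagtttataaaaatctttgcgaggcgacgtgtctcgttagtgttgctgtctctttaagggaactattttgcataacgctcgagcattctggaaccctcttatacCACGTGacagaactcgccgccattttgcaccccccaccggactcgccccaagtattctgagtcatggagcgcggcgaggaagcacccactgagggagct
Dazl: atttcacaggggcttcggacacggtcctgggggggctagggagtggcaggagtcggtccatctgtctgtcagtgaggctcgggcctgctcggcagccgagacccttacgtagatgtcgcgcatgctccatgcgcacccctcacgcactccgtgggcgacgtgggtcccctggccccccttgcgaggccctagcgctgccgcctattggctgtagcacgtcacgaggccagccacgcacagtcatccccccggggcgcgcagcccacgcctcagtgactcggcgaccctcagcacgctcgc
Tdrkh: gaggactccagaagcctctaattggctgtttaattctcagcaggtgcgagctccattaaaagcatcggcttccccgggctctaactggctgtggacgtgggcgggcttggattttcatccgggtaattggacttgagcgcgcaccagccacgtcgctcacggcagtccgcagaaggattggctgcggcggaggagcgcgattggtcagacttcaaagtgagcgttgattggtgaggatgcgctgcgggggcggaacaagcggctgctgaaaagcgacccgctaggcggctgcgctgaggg
Fkbp6 holds CACGTG at 101 and 37 bases before its start and Taf7l at 49 bases before, while Dazl and Tdrkh hold none in this window. The windows held 21 CpG in Fkbp6, 17 in Taf7l, 28 in Dazl and 25 in Tdrkh, against a median of 18 over the windows of the germline list, of 20 in promoters of genes tested here and of 7 in all promoters. Promoters were found for 49 genes of the germline list, 59 windows in all, of which 33.9% held CACGTG and 23.7% the E2F sequence. Among 11623 promoters of tested genes with a match these shares were 10.1% and 8.7%, and among all 32851 promoters 7.2% and 4.6%. Genes that rose between D6 and D13 held CACGTG in 17.9% of 145 windows and genes that fell in 5.2% of 307, and the E2F sequence in 6.2% and 6.8%. The 28 windows of the X-linked families described next held CACGTG in 3.6% and the E2F sequence in none. A match is a description of the sequence and not of binding.

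The Magea, Mageb, Xlr and Rhox families of the X chromosome are another group of genes that somatic cells silence by promoter methylation. Of 31 measured members, Xlr5b rose and none fell, and 11 were higher and 0 lower at an unadjusted p under 0.05. The count of rises was 8 with precision weights, 6 with a replicate block, 3 after the correction for length and GC content, and 0 without D13 replicate 1 or without either D6 library. The median was 0.83, with 1.00 in replicate 1 and 0.63 in replicate 2, and 27 members (87.1%) lay higher in both D13 libraries than in both D6 libraries, against 30.0% of all genes. Xlr5b went from 3.95 and 4.19 log2 CPM at D6 to 6.0 and 5.69 at D13 (1.77 ± 0.41, adjusted p = 0.0498), after 2 reads and 1 read in the D0 libraries. Magea3 (2.32 ± 0.59, adjusted p = 0.0594) and Rhox5 (0.70 ± 0.26, adjusted p = 0.145) were higher at D13 without being called. The D0 libraries had -7.30 and -5.86 log2 CPM for Magea3, near the floor, and the same for Magea5 and Magea8. The spread of such values enters the errors, so the count of rises depends in part on serum libraries outside the comparison. Members of each family are near copies, so the reads of single members, and with them the count of members, are uncertain. Of the 7 measured Pramel and related genes none was called (0 higher and 1 lower at an unadjusted p under 0.05, median 0.09), and Pramel6, which had risen to 4.75 and 5.01 log2 CPM by D6, stood at 2.84 and 2.43 at D13 (-2.25 ± 0.65, adjusted p = 0.0823).

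Several immediate-early genes were higher at D13 although the MEK inhibitor was still present. Immediate-early genes are transcribed within minutes of growth factor or stress signals, in part through ERK. Dusp4, a nuclear phosphatase gene that ERK itself induces, had 5.30 and 6.28 log2 CPM in serum, -0.61 and -0.84 at D6 and 2.62 and 3.15 at D13 (3.61 ± 0.39, adjusted p = 0.0137). Fos, a subunit gene of AP-1, had 0.85 and 0.34 at D6 and 3.24 and 3.17 at D13 (2.61 ± 0.41, adjusted p = 0.0215). Maff, which encodes a small MAF protein, went from 0.55 and 0.93 to 3.39 and 3.07 (2.49 ± 0.32, adjusted p = 0.0157). Both D13 libraries lay far above both D6 libraries in each case, and leaving out D13 replicate 1 gave 3.88 for Dusp4, 2.58 for Fos and 2.33 for Maff. Ier5 (1.94 ± 0.36, adjusted p = 0.029) and Jun (1.69 ± 0.31, adjusted p = 0.029), named after their values were seen, rose as well.

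Other members of the list were not called or fell. Of 31 measured ERK feedback and immediate-early genes, 5 rose (16.1%, against 1.43% of all genes) and 1 fell (3.23%, against 2.76%). The median of the list was -0.32, opposite in sign to most of its calls. Egr1, another direct ERK target, had 0.10 and -1.22 log2 CPM at D6 and -0.45 and -1.16 at D13 (-0.24 ± 0.53, adjusted p = 0.812). The feedback inhibitor genes Spry4 (-0.37 ± 0.66, adjusted p = 0.763) and Dusp6 (1.01 ± 0.38, adjusted p = 0.15) were not called either. Myc was the member that fell, from 0.66 and 1.78 to -0.86 and -1.12 (-2.21 ± 0.49, adjusted p = 0.0446), after 6.55 and 5.45 in serum. At an unadjusted p under 0.05, 7 members were higher and 10 lower.

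In the list of Notch pathway genes, which also holds the clock repressor gene Bhlhe41, the ligand Dll1 and Bhlhe41 rose by far the most. DLL1 on 1 cell activates Notch receptors on its neighbours, and BHLHE41 is a basic helix-loop-helix repressor of clock genes, of the same wider family as the HES and HEY targets of Notch. Dll1 (chromosome 17, 15367354 to 15376872, GRCm38) had 2.80 and 2.78 log2 CPM in serum, -0.29 and -1.68 at D6 and 3.07 and 4.11 at D13, a 23.9-fold rise (4.58 ± 0.53 on the log2 scale, adjusted p = 0.0139). Bhlhe41 (chromosome 6, 145858243 to 145865558, GRCm38) had 0.25 and 1.58 in serum, -2.44 and -3.02 at D6 and 1.86 and 2.37 at D13, a 28.7-fold rise (4.84 ± 0.56, adjusted p = 0.0139). Both genes were lowest at D6, with serum and D13 on the same side. Notch4 fell (-1.86 ± 0.36, adjusted p = 0.032), and 2 targets of the pathway were not called: Hes1 differed by -0.84 ± 0.23 (adjusted p = 0.0703), or by -1.0 with a call after the correction for length and GC content (adjusted p = 0.0238), and Hey1 by 0.74 ± 0.33 (adjusted p = 0.214). Of 26 measured members of the list, 2 rose (7.69%, against 1.43% of all genes) and 1 fell (3.85%, against 2.76%). Apart from Bhlhe41, Dll1 was the only member that rose. At an unadjusted p under 0.05, 8 members were higher and 4 lower, and the median was 0.06.

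The largest rise of all genes was that of a row the files name dd45g, and the 1 mouse symbol that gives this name once a capital G and the next character are removed is Gadd45g, a gene induced by stress that restrains growth. This row was singled out after its value was seen. It had 1.25 and 0.25 log2 CPM at D6 and 6.38 and 5.60 at D13 (5.24 ± 0.41, adjusted p = 0.00428). The rows dd45b (2.33 ± 0.42, adjusted p = 0.028) and dd45a (1.47 ± 0.26, adjusted p = 0.0268), matched in the same way to Gadd45b and Gadd45a, rose too. Of 44 measured p53 targets and apoptosis genes, a list that holds no symbol with a capital G, 2 rose (4.55%, against 1.43% of all genes) and none fell. Pmaip1, which encodes the BH3 protein NOXA, was among the rises (1.72 ± 0.27, adjusted p = 0.0219). At an unadjusted p under 0.05, 7 of the list were higher and 4 lower, with a median of 0.10. The anti-proliferative gene Btg1 went from 5.81 and 5.48 to 7.65 and 7.30 log2 CPM (1.83 ± 0.28, adjusted p = 0.0204). The cyclin-dependent kinase inhibitor gene Cdkn1a was not called (0.52 ± 0.19, adjusted p = 0.149).

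Hspa1a, an inducible HSP70 gene, had -1.03 and -0.47 log2 CPM at D6, 5.19 in D13 replicate 1 and 2.49 in D13 replicate 2. Its difference of 4.59 ± 0.74 (adjusted p = 0.0233) became 3.24 without D13 replicate 1, and the D13 libraries were far apart. Its near copy Hspa1b had 1.66 and 2.01 at D6 and 5.53 and 3.15 at D13 (2.50 ± 0.63, adjusted p = 0.0582, and 0.0444 after the correction for length and GC content), and reads may be shared between them. Other chaperone genes fell in both libraries: Dnajb1 (-1.19 ± 0.20, adjusted p = 0.0237), Chordc1 (-1.09 ± 0.23, adjusted p = 0.037) and Dnaja1 (-0.97 ± 0.21, adjusted p = 0.0434). Of 37 measured heat shock genes, 1 rose (2.7%, against 1.43% of all genes) and 3 fell (8.11%, against 2.76%). At an unadjusted p under 0.05, 3 members were higher and 6 lower, and the median was -0.05. After the correction for length and GC content Chordc1 (adjusted p = 0.172) and Dnaja1 (adjusted p = 0.126) were no longer called, and 3 members rose and 1 fell. Of 50 measured ATF4 and amino acid stress genes, the glutamine carrier gene Slc38a2 fell (-1.53 ± 0.25, adjusted p = 0.0237) and none rose, with 3 higher and 6 lower at an unadjusted p under 0.05 and a median of 0.06. No gene of 32 in the NRF2 and redox list was called, with 1 higher and 2 lower at an unadjusted p under 0.05, a median of 0.16 and its largest difference at Txnip (1.19 ± 0.60, adjusted p = 0.259, and 0.72 without D6 replicate 2).

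In the cell cycle lists the called genes were falls. Of 40 measured cyclins, CDKs and their regulators, Myc, E2f3 (-2.0 ± 0.31, adjusted p = 0.0219) and the cyclin J-like gene Ccnjl (-1.63 ± 0.34, adjusted p = 0.0357) fell and none rose. This was 7.5% of the list, against 2.76% of all genes, with 7 higher and 9 lower at an unadjusted p under 0.05 and a median of -0.06. Of 51 measured genes of S phase and mitosis, the origin recognition gene Orc1 fell (-1.10 ± 0.23, adjusted p = 0.039) and none rose. This was 1.96% of the list, with 1 higher and 9 lower at an unadjusted p under 0.05 and a median of -0.11.

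Genes of the Wnt and BMP lists were called in both directions. Of 23 measured Wnt and beta-catenin targets, the secreted inhibitor gene Notum (-1.41 ± 0.27, adjusted p = 0.031) and Myc fell, the receptor gene Fzd7 rose (1.33 ± 0.21, adjusted p = 0.0233), and the median was -0.35. The falls were 8.7% of the list and the rise 4.35%, against 2.76% and 1.43% of all genes. Of 17 measured BMP and Id genes, Id3, a target of BMP that blocks bHLH factors, fell from 0.45 and 1.41 to -1.49 and -2.98 log2 CPM (-3.16 ± 0.62, adjusted p = 0.032), after 5.89 and 4.69 in serum. The ligand gene Bmp7 rose from 3.77 and 3.6 to 5.43 and 5.05 (1.56 ± 0.32, adjusted p = 0.0355), and the median of the list was -0.05. The fall and the rise were each 5.88% of the list. Of 29 measured developmental homeobox genes 1 fell (3.45%) and none rose, with 3 higher and 2 lower at an unadjusted p under 0.05 and a median of 0.11.

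Single genes of the cell surface and matrix were called in both directions. Pdpn, which encodes the mucin-like protein podoplanin, went from 4.48 and 3.92 to 6.93 and 6.78 log2 CPM (2.65 ± 0.30, adjusted p = 0.0139), and the syndecan gene Sdc4 from 7.40 and 7.04 to 9.10 and 8.87 (1.77 ± 0.23, adjusted p = 0.0157). The adhesion gene Cadm4 had 1.89 and 2.23 in serum, 5.08 and 4.84 at D6 and 7.22 and 6.78 at D13 (2.04 ± 0.26, adjusted p = 0.0157), so that the 3 days did not overlap. Tgfbi, a matrix protein gene induced by TGF-beta, rose from 0.74 and -0.21 to 4.0 and 3.72 (3.6 ± 0.45, adjusted p = 0.0154). Of 33 measured adhesion and junction genes, Cldn7 (1.51 ± 0.31, adjusted p = 0.0355) and Cldn6 (1.14 ± 0.25, adjusted p = 0.0413) rose and Cdh2 fell, with a median of 0.10. The rises were 6.06% of the list and the fall 3.03%, against 1.43% and 2.76% of all genes. Of 72 measured collagens, laminins and matrix genes, 3 rose (4.17%) and 2 fell (2.78%, near the 2.76% of all genes), with a median of 0.15. They included the protease genes Mmp2 (1.46 ± 0.24, adjusted p = 0.0233) and Mmp17 (1.29 ± 0.23, adjusted p = 0.0273), the collagen gene Col4a1 (-2.68 ± 0.56, adjusted p = 0.0373) and Ecm1 (-1.96 ± 0.42, adjusted p = 0.0403). Col4a1 rested in part on D6 replicate 2, at 5.0 log2 CPM against 3.04 in D6 replicate 1, without which its difference was -1.70. Of 35 measured SRF and YAP targets, Krt18 (1.39 ± 0.31, adjusted p = 0.0432), Tagln2 (1.30 ± 0.27, adjusted p = 0.0362) and Cyr61 (1.25 ± 0.29, adjusted p = 0.0491) rose and none fell. The rises were 8.57% of the list, against 1.43% of all genes, with 7 higher and 4 lower at an unadjusted p under 0.05 and a median of 0.09.

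Of the lysosomal genes, more were called higher than lower. Of 51 measured lysosome and autophagy genes, 4 rose (7.84%, against 1.43% of all genes) and 1 fell, and 21 were higher and 2 lower at an unadjusted p under 0.05. The median was 0.49, with 0.44 in replicate 1 and 0.46 in replicate 2, and 58.8% of the list lay higher in both D13 libraries than in both D6 libraries, against 30.0% of all genes. The sphingomyelinase gene Smpd1 (1.37 ± 0.26, adjusted p = 0.0312), the sialidase gene Neu1 (1.24 ± 0.27, adjusted p = 0.0402) and the lysosomal glycoprotein gene Cd68 (1.24 ± 0.26, adjusted p = 0.0372) rose, as did the autophagy gene Atg12 (1.05, adjusted p = 0.0401), named after its value was seen. Npc1, which exports cholesterol from lysosomes, fell (-1.34 ± 0.28, adjusted p = 0.0372). The lysosomal thiol reductase gene Ifi30 went from 5.45 and 4.94 to 7.24 and 6.57 log2 CPM (1.71 ± 0.32, adjusted p = 0.0296).

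Among the metabolic lists, calls of the uncorrected fit were limited to glycolysis and hypoxia genes. Of 44 measured glycolysis and hypoxia genes, Pfkfb3, an activator of glycolytic flux (1.78 ± 0.27, adjusted p = 0.0198), and Ndrg1 (1.39 ± 0.26, adjusted p = 0.0296) rose and Kdm3a fell, with a median of 0.28. The rises were 4.55% of the list and the fall 2.27%, against 1.43% and 2.76% of all genes. No gene of 37 for cholesterol synthesis and uptake, a list that also holds fatty acid synthesis genes, was called. At an unadjusted p under 0.05, 1 was higher and 3 lower, with a median of -0.26. Fasn, a fatty acid synthase gene, had the largest difference (-1.33 ± 0.34, adjusted p = 0.0609). Cytosolic ribosomal protein genes had a median of 0.50 over 83 members, but 0.80 in replicate 1 and 0.18 in replicate 2, and 0.23 after the correction for length and GC content. None was called, with 7 higher and 0 lower at an unadjusted p under 0.05, and 1 rose and 1 fell after the correction. The 79 respiratory chain genes had a median of 0.30, which was 0.59 in replicate 1, 0.11 in replicate 2 and 0.13 after the correction, and none was called, with 8 higher and 0 lower at an unadjusted p under 0.05. D13 replicate 1 gave most of the shift of both lists. The largest differences were those of Rps27, at 1.24 ± 0.48 (adjusted p = 0.155) and 0.79 without D13 replicate 1, and of Atp5g2, at 1.19 ± 0.34 (adjusted p = 0.0789).

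Of the interferon and nucleic acid sensing genes, 3 were called. Ddx58, which encodes the RNA sensor RIG-I, had 4.48 and 5.20 log2 CPM at D6 and 1.98 and 2.52 at D13 (-2.59 ± 0.33, adjusted p = 0.0157). Bst2, an antiviral membrane protein gene (1.40 ± 0.27, adjusted p = 0.0319), and the peptide transporter gene Tap1 (1.45 ± 0.32, adjusted p = 0.0445) rose. Of 40 measured members 2 rose (5.0%, against 1.43% of all genes) and 1 fell (2.5%, against 2.76%). At an unadjusted p under 0.05, 4 members were higher and 11 lower, and the median was -0.42. Samd9l, an interferon-inducible growth inhibitor gene outside this list, fell from 1.85 and 2.28 to -1.61 and -0.63 (-3.19 ± 0.62, adjusted p = 0.032).

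Markers of other cell types were checked beside these results. The summed level of 25 primitive endoderm markers was 2920 and 2870 CPM at D6 and 3780 and 3430 CPM at D13, with Col4a1 as the only member that fell and none that rose, and a median of 0.17. Such a sum weighs the highest members most. Apoe went from 8.66 and 8.02 to 9.93 and 8.78 log2 CPM, and Rhox5, also of the X-linked families, from 8.0 and 7.92 to 9.01 and 8.32. For Sox17, Pdgfra and Dab2 the days overlapped, and over the list 17 differences were above 0 and 8 below. The 25 trophoblast genes summed to 1190 and 1040 CPM at D6 and 1580 and 1230 CPM at D13, with Fabp3 going from 8.0 and 7.2 to 9.4 and 8.8 log2 CPM. Of the 25 genes the keratin genes Krt7 (2.20 ± 0.37, adjusted p = 0.0241) and Krt18 rose (8.0%, against 1.43% of all genes) and none fell. At an unadjusted p under 0.05, 6 trophoblast genes were higher and 3 lower, with a median of -0.02. The 18 neural markers summed to 388 and 463 CPM at D6 and 411 and 346 CPM at D13, and Tubb3 fell (-1.62 ± 0.31, adjusted p = 0.0315), with a median of -0.13. The 17 mesenchymal markers summed to 1670 and 1570 CPM at D6 and 1640 and 1920 CPM at D13, and Mmp2 rose, with a median of -0.25. Fn1 was the highest of them, at 10.42 and 10.16 log2 CPM at D6 and 10.46 and 10.72 at D13. Where few genes lead a sum, it is not a measure of a cell type. The part of other cell types in the results was not tested.

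**Figure D5:**
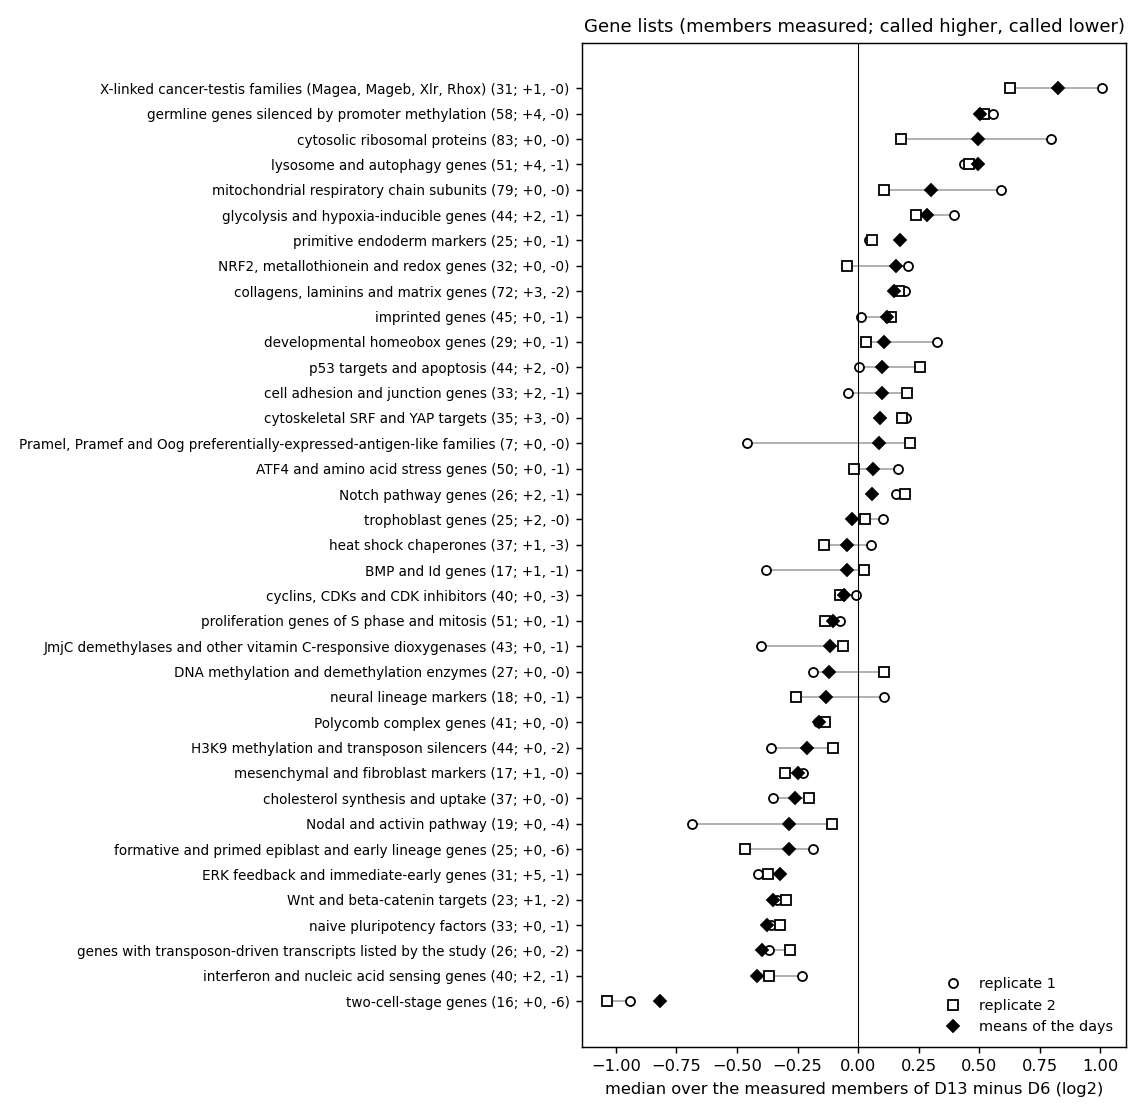
Median over the measured members of D13 minus D6 (log2, x axis) in 37 gene lists (y axis), for the means of the days (diamonds), the libraries of replicate 1 (circles) and those of replicate 2 (squares). Each label gives the members measured, called higher and called lower. The 2-cell-stage list lies lowest at -0.82 and the X-linked families highest at 0.83, while ribosomal and respiratory chain genes are near 0.18 and 0.11 in replicate 2 alone.

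The remaining genes among the largest changes belonged to no list. Falls were seen for Tiam2, a Rac exchange factor gene (-4.11 ± 0.66, adjusted p = 0.0233), with 178 reads in both D6 libraries and 10 at D13, a ratio of 15.9 with a 95% exact interval of 8.45 to 33.8. Pirt, Nt5e, Rerg, Invs and Enox1 fell, with differences of -3.66, -3.51, -3.39, -3.31 and -3.13 and with adjusted p-values from 0.0195 to 0.0268, and each had a D13 level under 0 log2 CPM in both libraries.

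Among the rises outside the lists, Rab3il1, a Rab exchange factor gene, went from 2.29 and 2.08 to 5.19 and 5.25 log2 CPM (3.03 ± 0.34, adjusted p = 0.0137). The Ras-like gene Rasd1 (3.24 ± 0.53, adjusted p = 0.0233), the muscle adenylosuccinate synthase gene Adssl1 (3.11 ± 0.43, adjusted p = 0.0173), the calcium-binding protein gene S100a1 (2.92 ± 0.57, adjusted p = 0.0319) and the nucleotide receptor gene P2ry2 (2.75 ± 0.51, adjusted p = 0.0294) rose. The non-coding transcripts 2810410L24Rik and E330020D12Rik rose by 2.72 and 2.25 on the log2 scale, with 1.98 and 1.62 without D13 replicate 1. The histone gene Hist3h2a (2.70 ± 0.51, adjusted p = 0.0299) and Dpys, a dihydropyrimidinase gene (1.80 ± 0.27, adjusted p = 0.0184), completed the group. For Rab3il1 and Rasd1 both D13 libraries also lay above both serum libraries, and for P2ry2 they did not.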

How the data were processed

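Transcripts of J1 ES cells were measured on D0, D6 and D13, with 2 replicates per day that the study calls biological. Per the labels, stranded mRNA libraries were made from DNase-treated RNA. The authors mapped reads to mm10 with TopHat2 2.0.6 and counted them on RefSeq genes with HTSeq 0.6.1 (versions from the submitters' processing notes), normalized genes and transposon families together by TMM and deposited voom log2 CPM values. All gene values gave whole reads (offset 0.5, tolerance 0.1), from which reads and depth were recovered. The setting for strand in the counting is not given in the sources used here.

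Values were tested with limma 3.58.1 (R 4.3.3), with a mean for each day, a mean-variance trend, all 6 samples and no block, with Benjamini-Hochberg adjustment across 12626 genes and 302 transposon families. Both pairs of replicate numbers gave deviations with a Pearson correlation of 0.329 between D6 and D13, but 2 pairs do not establish that numbers mark shared cultures. P-values measure the spread within the days over all 6 samples, so the spread of the serum libraries enters each error given for D13 minus D6. More than 2-fold apart were 1289 genes between the D0 replicates, 121 between those of D6 and 981 between those of D13. A gene can thus miss the threshold through its spread at D0. The fit was run on simulated data: of 100 genes each changed by 2 or 3 on the log2 scale, 69% and 92% were called. Among the unchanged rows, 6 were called. The simulated noise was independent between libraries, with gene spreads drawn around the median spread and no length trend. These shares therefore do not carry over to the real libraries, of which D13 replicate 1 stood apart.

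Genes and 37 gene lists were chosen with earlier results of these data known. Named genes are the 12 largest rises and falls past 4-fold with at least 10 reads in the higher day, the 8 largest of each direction past 2-fold with a mean of at least 6 log2 CPM in the higher day, up to 4 called members of each list or else its largest difference, and pluripotency and other genes that the study names. Some genes that this rule or a list takes are counted but not reported here by name. Lists hold no symbol with a capital G. The correction for length and GC content subtracted a spline in both, with 4 degrees of freedom each, from each library, over genes with a GENCODE vM21 transcript, and was added after the data were seen. Other alternatives were a read filter, fewer samples, the replicate block, other moderation, weights, scaling, offset and thresholds. Promoters and positions are from RefSeq and GENCODE on GRCm38. Tables were made with Python and pandas.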

Additional observations from a re-analysis of the deposited data

How the results depend on the processing

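The direction of all 528 calls held in every alternative that tested them, while the number of calls depended on the samples. In each call both D13 libraries lay on the same side of both D6 libraries. Leaving out a library could therefore not turn a direction, and the held direction is no check of the calls. Leaving out each library in turn gave 0 to 394 rises and 0 to 943 falls at any fold, and 0 to 64 rises and 0 to 193 falls past 4-fold, with the lowest counts without D13 replicate 1 and the highest without D13 replicate 2. With only the D6 and D13 samples, 320 genes rose. A replicate block, although the numbers do not establish a pairing, gave 421 rises and 805 falls, all 528 calls of the unblocked fit among them. At an adjusted p under 0.01, 1 rise and 3 falls were left at any fold and past 4-fold. On log2(CPM + 1), 27 rises and 22 falls stayed past 4-fold, since the offset shrinks the change of low genes. A 2-fold minimum in place of 4-fold gave 174 rises and 335 falls. Corrected for length and GC content, over 11479 genes, 477 genes rose and 646 fell, against 171 and 322 in the same genes uncorrected. Plain library sizes shifted the median gene to -0.082 and gave 127 rises and 339 falls. Of the 94 called genes taken by the rule for named genes, 94 lost their call without D13 replicate 1, 62 without D6 replicate 1 and 81 without D6 replicate 2, and in the other alternatives at most 15 did, except at an adjusted p under 0.01, where 92 did. None of the 94 turned, which leaving out a library could not have brought about. Pou5f1, which was not called, ranged from -0.202 without D13 replicate 1 to 0.521 without D13 replicate 2 and turned to -0.127 after the correction. With 2 libraries per day, a change smaller than their spread was not detectable.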
